A study of Mus musculus with 6 samples.

Results

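The genes described here are the dual-specificity phosphatases named Dusp and the Sprouty (Spry) and Spred genes, families best known for members that dampen mitogen-activated protein kinase (MAPK) signalling. They were taken by symbol from the annotation of the count files, as every Dusp, Spry or Spred symbol followed only by a number, which gave 31 of 24391 annotated genes. The rule used no measured value, but members were chosen with earlier results of these data known. The data are 6 RNA sequencing libraries of mRPMaxKO, a mouse line on a mixed 129/SvJ and C57BL/6 background that was started from a Max-deleted lung tumour of the RP model of small cell lung cancer, in which Rb1 and Trp53 are deleted too. Both groups, control (3 libraries) and MAX restored (3 libraries), share that genotype, a passage number below 20, 500 ng of input RNA and the deletion of the cells' own Max. The cells were a polyclonal, puromycin-selected population of this single line carrying an inducible lentiviral vector, and 4 days of doxycycline are given in the same words for every library. Whether controls had an empty vector or the drug is not stated, so vector and drug cannot be told apart from MAX. Separate cultures are not stated either, and p-values then cover only the spread among these libraries, which could be technical. In bulk RNA, fewer cells expressing a gene and less RNA per cell cannot be told apart.

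Growth factor receptors pass their signal through RAS, RAF and MEK to the kinase ERK, and stress signals run through parallel chains to JNK and p38. The classical Dusp phosphatases, called MAPK phosphatases (MKPs), remove the activating phosphates from the threonine and tyrosine of these kinases, and several of their genes are themselves switched on by ERK. Sprouty and Spred proteins act higher up, between the receptor and RAF, and Spred proteins bring the RAS inhibitor neurofibromin to the membrane. In many tumours the level of these transcripts follows the activity of the pathway, and since their products inhibit it they are called feedback genes.

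Promoter sequences are shown first, because MAX is restored in this comparison and binds a known motif; they are those of 4 members that were higher with MAX restored, 3 with a motif and 1 without, picked after the calls were known. RefSeq start sites (GRCm38) were found by symbol for 23 of the 31 members, and the 250 bases before each start were searched on both strands. The motif CACGTG, the E-box that MAX dimers bind, was found in 2 members, Dusp1 and Dusp2, and in 6.02% of all 32851 promoter windows. In the Dusp1 window, chr17:26508473-26508722 on the minus strand, capitals mark TGACGTCA, the cyclic AMP response element, and then CACGTG, 126 to 121 bases before the start. In the Dusp2 window, chr2:127335909-127336158 on the plus strand, capitals mark CGCGTG, the reverse complement of the weaker E-box CACGCG, and then CACGTG, 109 to 104 bases before the start. In the Dusp5 window, chr19:53528895-53529144 on the plus strand, capitals mark a pair of adjoining CArG boxes, the element bound by serum response factor. In the Dusp6 window, chr10:99262981-99263230 on the plus strand, none of the motifs searched was present.
Dusp1: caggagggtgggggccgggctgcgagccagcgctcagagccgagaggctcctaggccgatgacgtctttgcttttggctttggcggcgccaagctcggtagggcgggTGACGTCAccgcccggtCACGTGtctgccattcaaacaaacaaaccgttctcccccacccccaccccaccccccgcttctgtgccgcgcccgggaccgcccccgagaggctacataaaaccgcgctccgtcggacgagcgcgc
Dusp2: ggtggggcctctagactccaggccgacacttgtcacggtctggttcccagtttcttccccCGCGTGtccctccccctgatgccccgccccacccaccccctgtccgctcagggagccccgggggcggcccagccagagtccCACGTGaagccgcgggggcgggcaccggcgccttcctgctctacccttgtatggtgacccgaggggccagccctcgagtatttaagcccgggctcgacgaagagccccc
Dusp5: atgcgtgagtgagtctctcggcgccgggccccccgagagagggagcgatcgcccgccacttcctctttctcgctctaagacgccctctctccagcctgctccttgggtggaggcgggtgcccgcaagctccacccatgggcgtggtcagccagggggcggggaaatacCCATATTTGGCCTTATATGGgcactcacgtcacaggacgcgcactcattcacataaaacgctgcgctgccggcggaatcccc
Dusp6: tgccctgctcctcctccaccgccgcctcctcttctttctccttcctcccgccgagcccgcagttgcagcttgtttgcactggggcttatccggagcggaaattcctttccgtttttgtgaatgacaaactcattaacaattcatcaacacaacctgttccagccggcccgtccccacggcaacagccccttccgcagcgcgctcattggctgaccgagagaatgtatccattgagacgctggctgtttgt

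Among the 18 tested members with a window and no CACGTG, 8 were higher, 4 were lower and 6 did not pass. Of all tested genes 31.2% were called higher and 32.3% lower. The share called among all genes with CACGTG was not computed. Across all members, CACGCG was found in Dusp2, Dusp14 and Dusp18 (higher), Dusp3 (lower), and Dusp22 and Spry1 (did not pass). It was found in 7.62% of all windows. Whether a motif goes with a change was not tested. TGACGTCA was found in Dusp1 and Dusp8 (1.55% of all windows), the ETS motif CCGGAAG in Dusp27 only (6.91%), and the CArG box in Dusp5 only (1.47%). The windows of the members were richer in G and C than those of all genes, with a median of 59.4% against 52.4%, and both E-box forms hold a CpG. A match describes the letters of the window and is not a measured binding site. Dusp4, Dusp19 and Spry4 were tested and had no entry in the promoter table.

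The libraries held between 10046899 and 11925909 counts each. Max, restored by design, checked the labels: its counts ran from 620 to 691 in the controls and from 13369 to 15979 with MAX restored, a rise of 20.9-fold. Reads of Max thus remained in the controls although the cells' own Max is deleted, and their source was not tested. Control 1 stood apart from the other controls, with a chi-square per degree of freedom of 8.91 and 10.2 against them, where control 2 and control 3 gave 1.50. The ribosomal precursor Rn45s took 0.996% of its counts against 0.109% to 0.187% in all others. Among the 23 tested members 10 were higher in control 1 than the mean of controls 2 and 3, with a median log2 difference of -0.05. The neuroendocrine identity of the line was present in both groups, where 9 of 10 markers were measurable and summed to between 9300 and 9550 CPM (library-size scaled counts, after TMM) in the controls and 9270 and 9580 CPM with MAX restored. Neurod1 was at 0. Summed levels of 8 fibroblast markers were 4.12 to 4.56 CPM against 5.88 to 7.31 CPM, and of 6 immune markers 1.49 to 2.95 CPM against 2.41 to 3.32 CPM, with Lum and Cd3e at 0. The 5 endothelial markers summed to 528 to 582 CPM against 419 to 454 CPM, nearly all of it Vwf, with Cdh5 at 0. The 7 markers of non-neuroendocrine cells summed to 62.0 to 65.5 CPM against 45 to 45.4 CPM. The part of these shifts in the results was not tested.

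Of the 31 members, 23 passed the filter on low counts and were tested for a difference between MAX restored and control. With MAX restored 10 were higher, 5 were lower and 8 did not pass, a share called of 65.2%, where 63.5% of all 12664 tested genes were called. Split by direction, the background was 31.2% called higher and 32.3% called lower. The share of members that moved was thus near that of the whole transcriptome. The median log2 fold change of the 23 was 0.03, against 0.00 for all tested genes, and their range ran from -1.11 to 1.14. In 13 of the 23 (56.5%) the libraries of both groups did not overlap, against 67.1% of all tested genes. Without control 1, 9 were higher and 5 lower. Among genes not annotated on unplaced sequence, which leaves out Spry3, no exon of a member overlapped an exon of another gene. Counting without strand therefore did not mix the reads of these members with those of such an overlapping gene. The medians of the genes around each tested member, up to 25 on each side, lay between -0.14 and 0.10 on the log2 scale. The plot of levels by library shows all 23.

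**Figure D1:**
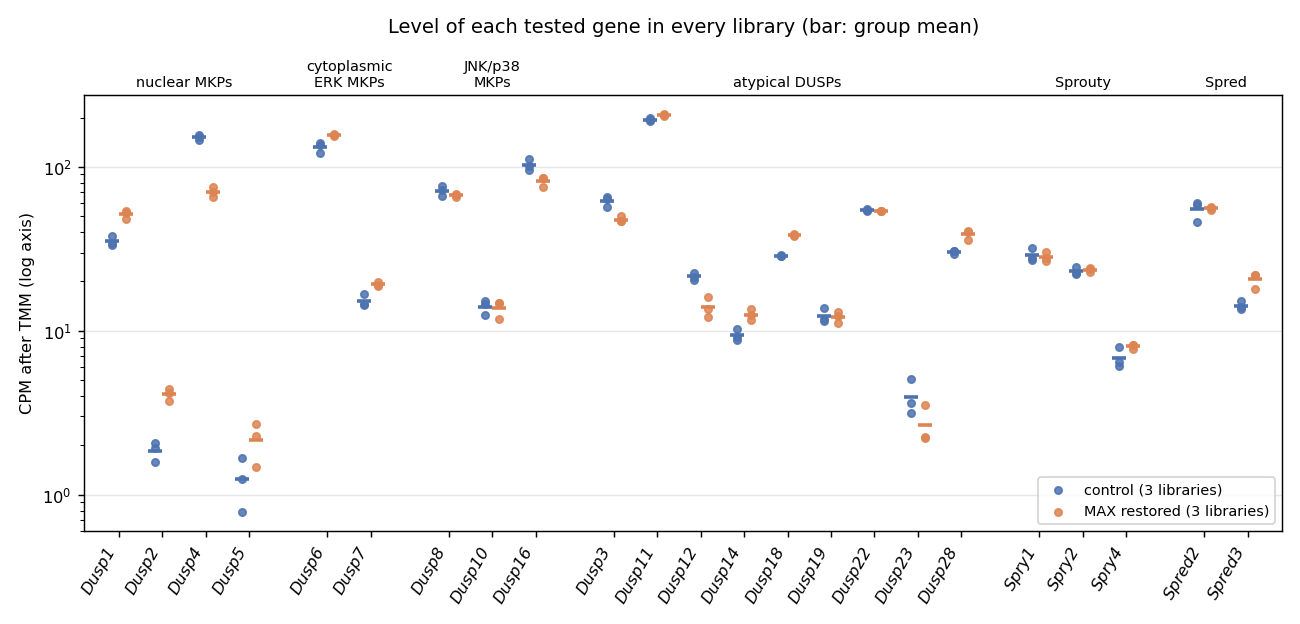
CPM after TMM scaling (log axis) of the 23 tested genes in each of the 6 libraries, ordered by role, with a bar at each group mean. Dusp4 falls from 151.4 to 70.3 CPM while its relatives Dusp1 and Dusp2 rise. Dusp5 rises in the mean, with groups that overlap, and Spry1 and Spry2 lie at nearly the same height in both groups.

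All 4 nuclear MKPs, which are made in response to signalling and act on MAPKs in the nucleus, were called, beside 63.5% of all tested genes. Dusp4 fell and the other 3 rose, Dusp5 with groups that overlapped. Dusp4 (chromosome 8 of mm9, 35870664 to 35882948, plus strand, 4 exons), which acts on ERK and JNK, had 146.0, 155.6 and 152.7 CPM in controls 1, 2 and 3. With MAX restored it had 69.9, 75.8 and 65.3 CPM. Every MAX restored library lay below every control, and the fall was 2.15-fold (log2 -1.11, SE 0.06, adjusted p = 1.04e-12 in edgeR's quasi-likelihood test). This was the largest change in either direction among members with more than 10 CPM.

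Dusp1, an early-response phosphatase with a preference for p38 and JNK, moved the other way. Its controls held 34.2, 38 and 33.6 CPM and its MAX restored libraries 52.6, 54.0 and 48.2 CPM. The groups did not overlap, and the rise was 1.46-fold (SE 0.07 on the log2 scale, adjusted p = 4.67e-07). Dusp2, a nuclear phosphatase known from activated lymphocytes, was far less abundant, with raw counts of 21, 20 and 16 in the controls and 50, 42 and 45 with MAX restored. In CPM it went from 2.07, 1.92 and 1.58 to 4.20, 3.75 and 4.40. Here too the groups were separate, and the fold was 2.20 (95% interval 1.66 to 2.92, adjusted p = 7.72e-05).

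Dusp5, which is specific for ERK and holds it in the nucleus, had the lowest CPM of the tested members in both groups. Its counts were 8, 13 and 17 in the controls and 27, 30 and 15 with MAX restored. MAX restored library 3, at 1.47 CPM, lay below control 3, at 1.68 CPM, so the groups overlapped. The fitted rise was 1.73-fold (95% interval 1.14 to 2.64, adjusted p = 0.0307). It rests on single libraries: without control 1 the log2 value was 0.56 with an adjusted p of 0.125, and without MAX restored library 2 it was 0.61 with an adjusted p of 0.148. Leaving out control 2 or MAX restored library 1 also ended the call, at 0.0642 and 0.0818.

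The cytoplasmic phosphatases that act on ERK rose slightly. Dusp6 (chromosome 10 of mm9, 98725865 to 98730123), a standard readout of ERK activity, had 139.6, 135.7 and 121.0 CPM in the controls and 154.1, 156.3 and 159.1 CPM with MAX restored. Its groups were separate and the rise was 1.18-fold (95% interval 1.10 to 1.27, adjusted p = 0.000479). Dusp7, its close relative, had 14.6, 16.8 and 14.4 CPM against 19.1, 19.9 and 18.7 CPM. That was a rise of 1.26-fold without overlap (adjusted p = 0.00448). Dusp9, the remaining cytoplasmic member, held 4 counts in each group over all libraries and was not tested.

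Of the 3 phosphatases that prefer JNK and p38, 1 was lower and 2 did not pass, where 63.5% of all tested genes were called. Dusp16, which shuttles between nucleus and cytoplasm, had 111.8, 101.9 and 95.9 CPM in the controls and 85.8, 85.1 and 75.2 CPM with MAX restored. All MAX restored libraries lay below all controls, by 1.26-fold (adjusted p = 6.63e-05). Dusp8, prominent in the nervous system, had 76.2, 72.6 and 66.0 CPM against 65.5, 67.4 and 68.2 CPM, and did not pass (fold 0.936, 95% interval 0.868 to 1.01, adjusted p = 0.135). Without control 3 it passed as lower, with an adjusted p of 0.0268. Dusp10 had 12.5, 15.1 and 14.5 CPM against 11.8, 14.7 and 14.8 CPM, with an interval for the fold from 0.838 to 1.14. Its groups overlapped, as did those of Dusp8.

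**Figure D2:**
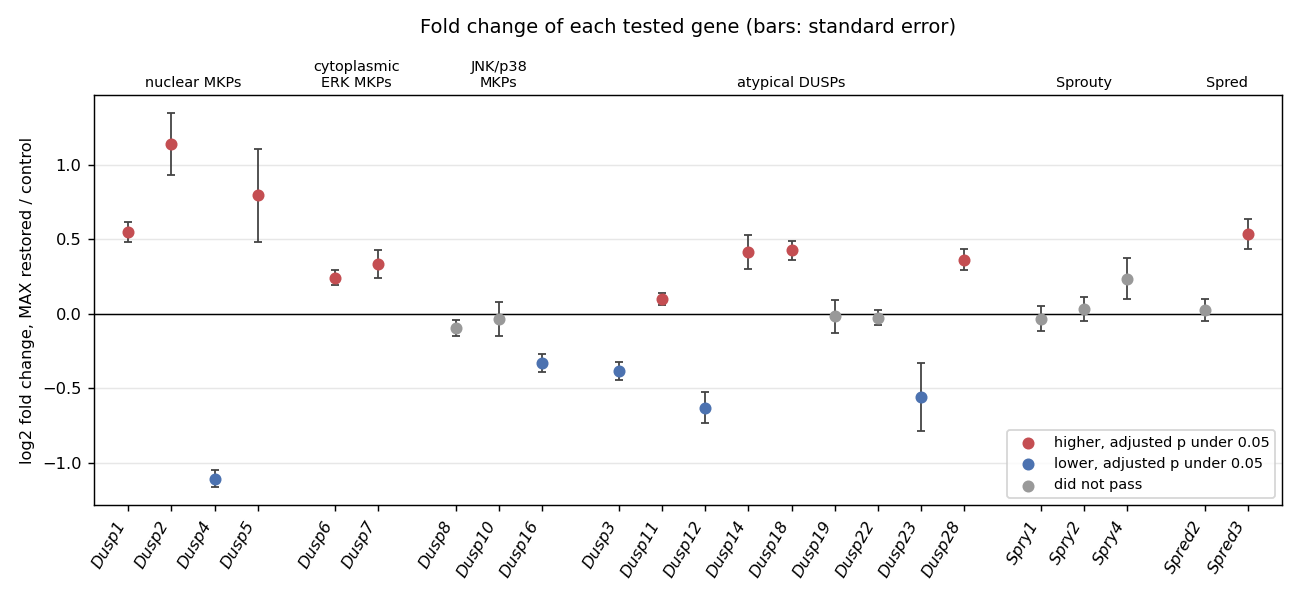
Fitted log2 fold change of MAX restored over control for the 23 tested genes, grouped by role, with bars of 1 standard error. The 4 nuclear phosphatases hold both extremes, Dusp2 at 1.14 and Dusp4 at -1.11, and Spry1 and Spry2 lie near 0, with Spry4 at 0.24.

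The atypical phosphatases are small enzymes without the kinase-binding domain of the MKPs, and several act on substrates other than MAPKs. Of 14 annotated, 9 were tested, with 4 higher, 3 lower and 2 not past the threshold. The share called was 77.8% of these 9, beside 63.5% of all tested genes. Among the risers, Dusp18, found at mitochondria, had 29.2, 28.4 and 28.5 CPM in the controls and 39.2, 38.4 and 38 CPM with MAX restored. The spread within each group was small beside the shift, a rise of 1.34-fold (adjusted p = 9.38e-06). Dusp28 went from 30.8, 30.5 and 29.6 CPM to 40.8, 40.1 and 36 CPM (1.29-fold, adjusted p = 0.000115). Dusp14 rose 1.33-fold, from 10.2, 9.11 and 8.82 CPM to 12.5, 11.6 and 13.5 CPM (adjusted p = 0.00382). In all of these the groups were separate.

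Dusp11, a phosphatase that trims the triphosphate from the end of RNA, was the most abundant member in CPM. It had 198.2, 189.7 and 192.1 CPM in the controls and 209.1, 207.0 and 204.9 CPM with MAX restored. The shift was only 1.07-fold (95% interval 1.01 to 1.13, adjusted p = 0.0455). Its call was lost without any of controls 2 and 3 or MAX restored libraries 1, 2 and 3, with adjusted p from 0.0667 to 0.144.

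Dusp12, a phosphatase with a zinc-binding tail linked to ribosome production, was the deepest faller of the tested atypical members. Its controls had 20.5, 22.6 and 21.4 CPM and its MAX restored libraries 12.2, 13.6 and 16.1 CPM. The fall was 1.55-fold with no overlap (log2 -0.63, SE 0.10, adjusted p = 2.49e-05). Dusp3, which acts on ERK and JNK and is needed in the cell cycle, had 65.8, 57.0 and 63.6 CPM against 46.6, 46.5 and 50.0 CPM. That was a fall of 1.30-fold (adjusted p = 1.70e-05), again without overlap.

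Dusp23, one of the smallest phosphatases, had raw counts of 37, 53 and 32 in the controls and 42, 25 and 23 with MAX restored. The groups overlapped, since MAX restored library 1 at 3.53 CPM lay above control 3 at 3.17 CPM. The fitted fall was 1.47-fold (adjusted p = 0.0402). Without control 2 the log2 value went from -0.56 to -0.34 (adjusted p = 0.255), and without MAX restored library 2 or 3 the adjusted p was 0.159 and 0.149. Dusp22, an activator of JNK signalling, had between 53.7 and 55.7 CPM in all 6 libraries, with an interval for the fold from 0.916 to 1.05. Dusp19, a partner of JNK pathway kinases, had 11.2 to 13.7 CPM, with an interval from 0.850 to 1.15.

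The Sprouty genes, inhibitors that block the signal between receptor and RAF, did not pass the test. Spry1 had 27.7, 26.9 and 32.1 CPM in the controls and 30.1, 27.9 and 26.6 CPM with MAX restored. Spry2 had 22.5, 22.3 and 24.6 CPM against 24.3, 22.7 and 23.8 CPM. The intervals of the fold ran from 0.875 to 1.09 for Spry1 and from 0.916 to 1.14 for Spry2, so shifts of the size seen in Dusp18 lay outside both. Spry4 was lower in level, with 6.11, 7.96 and 6.44 CPM against 8.23, 7.76 and 8.21 CPM. Its interval, 0.979 to 1.42, did not exclude a rise of that size (adjusted p = 0.137), and without control 2 it passed as higher (adjusted p = 0.0459). Spry3 is annotated on X sequence of mm9 without a fixed place and had 0 counts in all 6 libraries.

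The Spred genes were split between an abundant, a scarce and an undetected member. Spred2 had 46.2, 60.5 and 58.2 CPM in the controls and 54.9, 57.1 and 56.0 CPM with MAX restored, and did not pass (interval of the fold 0.920 to 1.12). Control 1 was its lowest library, and without it the log2 value went from 0.03 to -0.09 (adjusted p = 0.178). Spred3, the member with the most restricted expression, had 13.9, 13.6 and 15.1 CPM against 18.1, 21.8 and 22 CPM. Its groups were separate and it rose 1.45-fold (adjusted p = 0.000107).

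Spred1 (chromosome 2 of mm9, 116946807 to 117008013, plus strand), the family member mutated in Legius syndrome, had 0 counts in each of the 6 libraries over 7084 bases of exon. At the limit of 3 counts per library that a count of 0 allows, its level was at most 0.0356 to 0.0419 CPM per kilobase, counting error only. Spred2 was at least 386-fold to 537-fold higher per length in the same libraries. The next gene downstream with many reads, Fam98b, starts 128.7 kb from the start of Spred1 and had 588 to 735 counts in every library. Rasgrp1, a RAS exchange factor gene whose nearer end lies at 158.9 kb, had 1 count in all. The nearest upstream genes, Tmco5 and D330050G23Rik, had 0 and 1 counts, and Meis2, farther upstream, had 29.9 and 45.7 CPM per kilobase. Transcripts of Spred1 were therefore not detectable at this depth in either group, although a neighbour on the same strand was well expressed.

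**Figure D3:**
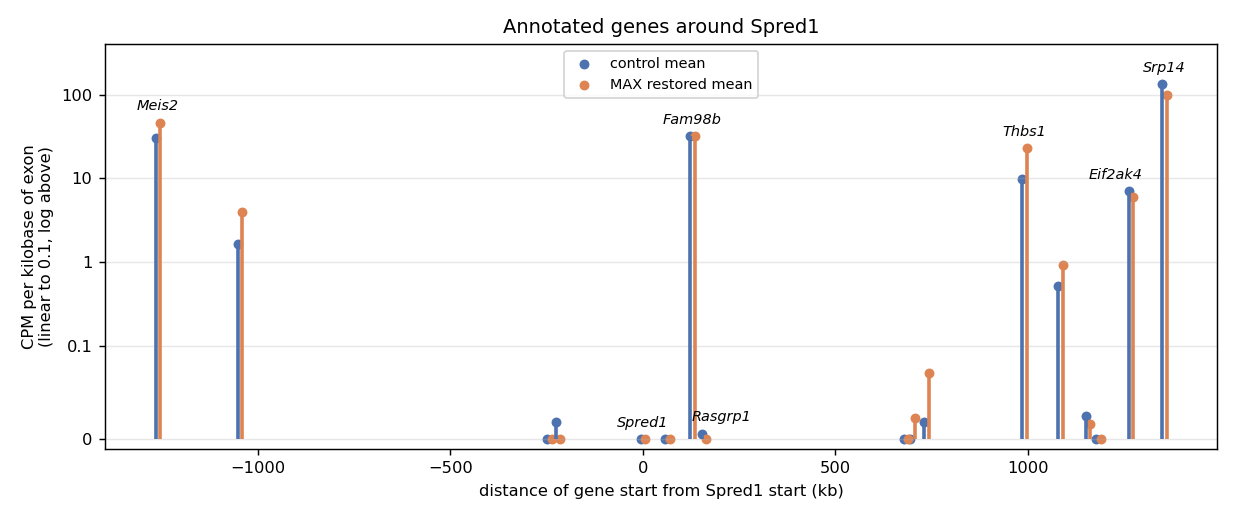
Mean CPM per kilobase of exon in the control and MAX restored libraries for the annotated genes around Spred1, placed by the distance of their start from that of Spred1 in kb (left end in genome order), on an axis linear to 0.1 and logarithmic above. Spred1 is at 0 in both groups, and Fam98b at 128.7 kb is at 31.7 and 31.9.

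The other untested members were close to 0. Dusp15, an atypical enzyme of myelinating glia, had 7, 7 and 3 counts in the controls and 1, 0 and 1 with MAX restored, a control over MAX restored ratio of 9.24 (95% exact counting interval 2.19 to 82.5). Dusp26, described in neural tissue, had 5 counts in the controls and 2 with MAX restored. Dusp27, thought to lack activity, had 3 and 5 counts, and Dusp13, of testis and muscle, 1 and 2. Dusp21 had none. No library held more than 7 counts of any of these, and the intervals of the ratio for Dusp13, Dusp26 and Dusp27 included 1. With no filter beyond a count above 0, Dusp15 was called lower (log2 -2.99, SE 0.89, adjusted p = 0.00229), and Dusp9, Dusp13, Dusp26 and Dusp27 did not pass (adjusted p from 0.446 to 0.955).

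Levels of different genes were compared per kilobase of exon. In the controls Dusp4 stood first at 62.4 ± 2.04 CPM per kilobase, followed by Dusp6 at 47.2 ± 3.49 and Dusp11 at 30.0 ± 0.677 (SD, n = 3), each apart from the next in every library. With MAX restored Dusp6 was first at 55.9 ± 0.890, and Dusp11 (32.2 ± 0.323) and Dusp4 (29.0 ± 2.18) followed (SD, n = 3), the last of them overlapping Dusp1 at 26.6 ± 1.56. Below the leaders many neighbours in the control order could not be separated: Dusp28, Dusp16, Spred2, Dusp1 and Dusp22, all between 17.9 and 20.3, each overlapped the next. The lowest were Dusp2 and Dusp5 at 1.15 and 1.07, which overlapped too. Spry1 (11.6 ± 1.12) and Spry2 (11.1 ± 0.600) also overlapped in the controls (SD, n = 3).

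The order of the leading members changed with the fall of Dusp4. The level of Dusp4 over that of Dusp6, per length, was 1.21, 1.32 and 1.45 in the controls and 0.523, 0.559 and 0.473 with MAX restored, in library order. This ratio was chosen after its values were seen and is a description. Dusp4 made up 17.4% to 18.6% of the summed level of all 31 members in the controls and 8.23% to 9.34% with MAX restored. The share of Dusp6 was between 12.8% and 14.5% in the controls and between 16.7% and 17.4% with MAX restored. That of Dusp1 was between 5.10% and 5.58% and then between 7.59% and 8.31%. The nuclear MKPs together summed to between 79.7 and 85.9 CPM per kilobase in the controls and 55.7 and 63.7 with MAX restored, since the rises of Dusp1, Dusp2 and Dusp5 were smaller in level than the fall of Dusp4. The cytoplasmic ERK phosphatases went from between 47.8 and 54.5 to between 61.0 and 62.8. The sum of all members was 339 to 350 in the controls and 327 to 334 with MAX restored.

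**Figure D4:**
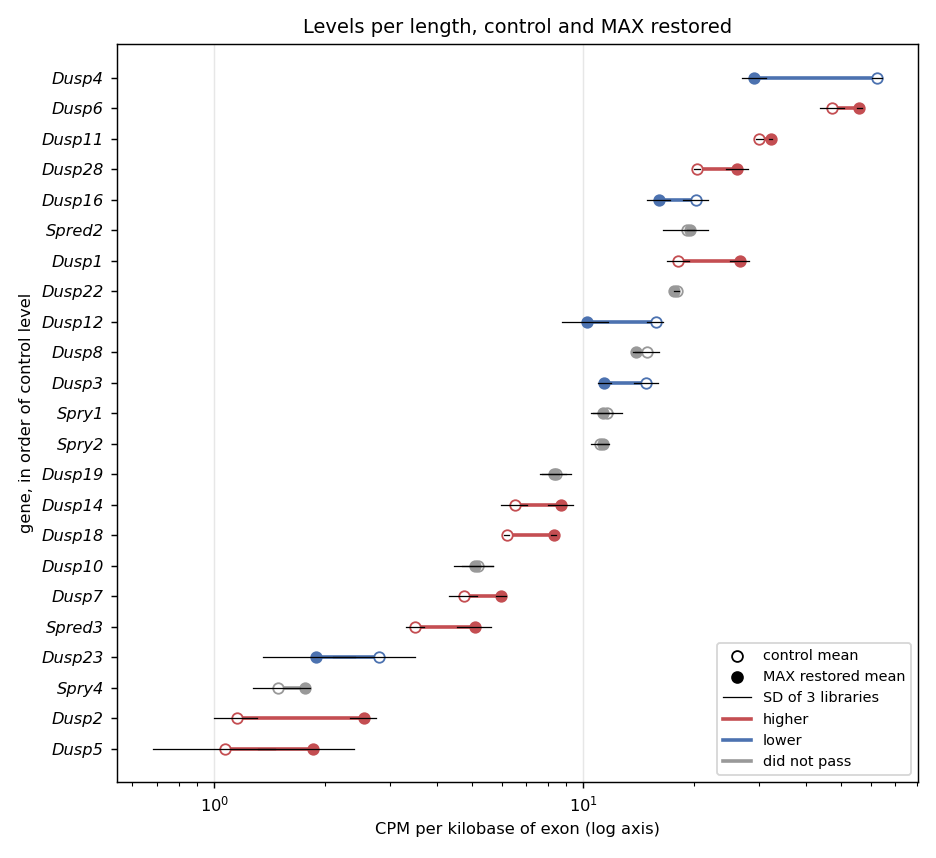
Mean CPM per kilobase of exon (log axis) of the 23 tested genes in the control (open) and MAX restored (filled) libraries, in order of control level, with thin bars for the SD of 3 libraries. Dusp4 drops from 62.4 to 29.0 and so below Dusp6 and Dusp11, while Spry1, Spry2, Dusp19, Dusp22 and Spred2 keep nearly the same level.

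The rest of the MAPK pathway was described from 7 lists by role. Of 148 annotated genes 121 were tested, and 44 were higher and 39 lower, a share of 68.6% beside 63.5% of all tested genes. The median log2 fold change was 0.06. Every list held genes that were higher and genes that were lower. By list, the share called ran from 57.1% (JNK and p38 genes, other inhibitors) to 85.7% (growth factor receptors). Each gene named below by the smallest p in its list passed, with adjusted p of 4.30e-06 or smaller.

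Of 14 tested growth factor receptors 8 were higher and 4 lower (median log2 0.27), a share called of 85.7% beside 63.5% of all tested genes. The receptor gene Kit rose from 161.9 ± 1.35 to 288.7 ± 11.2 CPM (SD, n = 3; 1.78-fold), Egfr rose 2.24-fold and Epha2 2.18-fold. Of 22 tested adaptors and RAS regulators 8 were higher and 8 lower (median 0.01). The exchange factor gene Rasgrf2 rose 3.71-fold, from 52.4 ± 4.56 to 194.7 ± 1.74 CPM (SD, n = 3). Rasgrf1, the other exchange factor of that pair, fell 3.40-fold, from 6.65 to 1.96 CPM. Nf1, the partner of the Spred proteins, was at 184.6 ± 1.78 and 193.3 ± 2.45 CPM and did not pass (SD, n = 3; adjusted p = 0.178); it was picked after its values were seen.

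Of 19 tested RAS, RAF, MEK and ERK genes 6 were higher and 7 lower, with a median of 0.02 and a range from -0.35 to 0.89. The scaffold gene Ksr2 rose 1.65-fold, the small GTPase gene Mras 1.62-fold, and Mapk3, which encodes an ERK kinase, 1.24-fold. Of 21 tested JNK and p38 genes 6 were higher and 6 lower (median -0.02). The p38 gene Mapk13 fell 1.68-fold, from 377.1 ± 4.05 to 224.8 ± 8.28 CPM (SD, n = 3), while the upstream kinase gene Map3k12 rose 1.57-fold and the neuronal JNK gene Mapk10 1.46-fold.

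Of 19 tested kinases and transcription factors that MAPKs act on, 5 were higher and 9 lower (median -0.14). The ERK-activated kinase gene Rps6ka3 fell 1.95-fold, from 354.8 ± 23.1 to 181.7 ± 6.94 CPM (SD, n = 3), and Ets2 fell 1.50-fold. Elk3, a factor that joins serum response factor on DNA, rose 4.37-fold from a low level of 2.54 CPM. Among 14 tested genes of the list of other inhibitors 5 were higher and 3 lower (median 0.07). That list also holds phosphatase-family genes, such as Ssh1, Ssh2 and Ssh3, that are not established inhibitors of the pathway. Errfi1, a feedback inhibitor of the EGF receptor, rose 1.56-fold and the phosphatase gene Ssh3 1.33-fold, while Pebp1, which binds RAF, fell 1.46-fold.

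Of 13 tested ERK-responsive transcripts outside the families 7 were higher and 2 lower (median 0.35). That was 69.2% called, beside 63.5% of all tested genes (31.2% higher and 32.3% lower). The list was chosen with earlier results of these data known. Epha2 counts here and among the growth factor receptors. The 3 genes with the smallest p rose: Egr1 (2.62-fold), Epha2 (2.18-fold) and Phlda1, from 4.75 ± 0.530 to 10.6 ± 0.193 CPM (SD, n = 3; 2.23-fold). A fall of like size was that of Plaur, the urokinase receptor gene, from 6.07 ± 1.03 to 2.70 ± 0.169 CPM (SD, n = 3; log2 -1.16, adjusted p = 1.52e-05), which was picked after its values were seen. A published set of 10 transcripts used to score MAPK activity in tumours, looked up after values were seen, holds 4 of the members. Of its 9 tested genes 3 were higher, namely Phlda1, Epha2 and Dusp6, and 2 were lower, Dusp4 and Etv4. Spry2, Spry4, Ccnd1 and Etv5 did not pass, and Epha4 had 0 counts. Transcripts of this set did not move in 1 direction, and nor did all tested genes, of which 31.2% were higher and 32.3% lower. The genes of the set outside the families are in the list of ERK-responsive transcripts too.

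**Figure D5:**
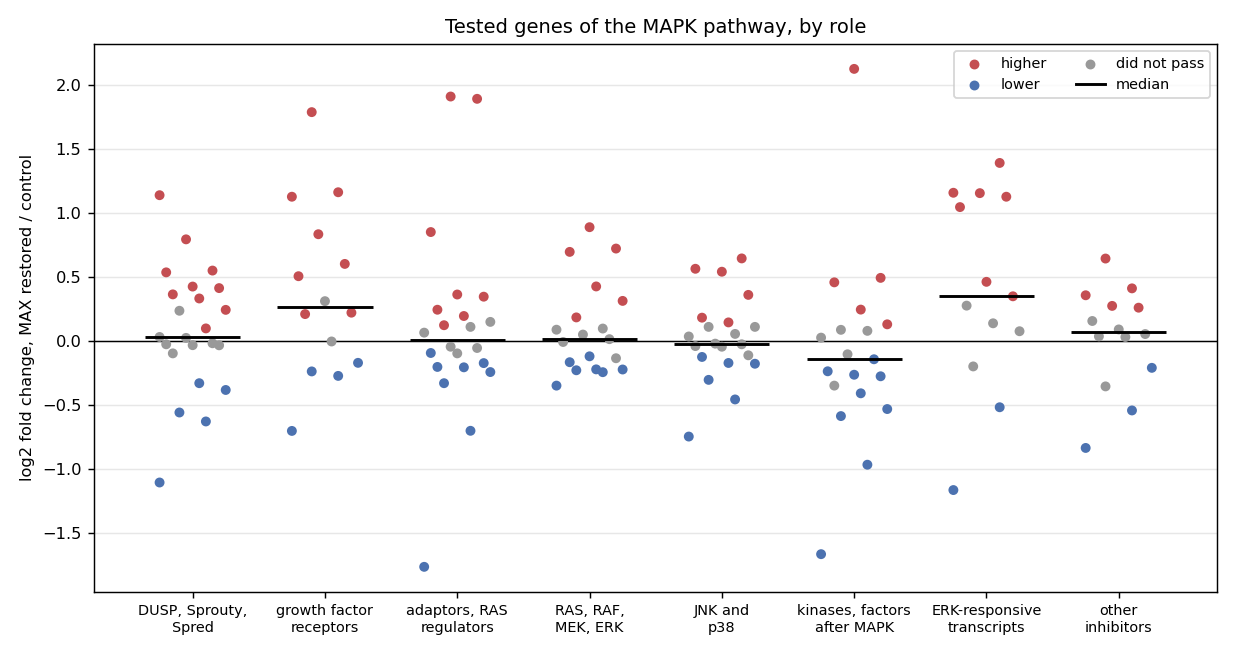
Log2 fold change of MAX restored over control for each tested gene of the 7 pathway lists beside the DUSP, Sprouty and Spred genes, with a line at each median. The medians run from -0.14 for kinases and factors after MAPK to 0.35 for ERK-responsive transcripts, and every list holds genes called in both directions.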

How the data were processed

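Raw counts of reads per gene were deposited by the authors, 1 file per library. Tools listed in the submitters' processing notes are STAR 2.5.2a, bcl2fastq 1.8.4 and Subread 1.6.0, and the build is mm9. Per the file headers, featureCounts counted without strand over the UCSC mm9 genes, with no option for reads of several places or genes, so near-identical copies can lose reads. Members and lists were chosen with earlier results of these data known. Named pathway genes are the 3 with the smallest p in each list, of which 1 is not reported here. The filter was edgeR 4.0.16's filterByExpr (minimum count 10), which left 12664 of 24391 genes. After TMM scaling to CPM (counts scaled to library size) the edgeR quasi-likelihood test was run in R 4.3.3 with group as the only term, two-sided, Benjamini-Hochberg adjusted over all tested genes, threshold 0.05. Standard errors are the absolute log2 fold change over the square root of F, and 95% intervals of folds span 1.96 of them. Alternatives used DESeq2 1.42.0, limma 3.58.1, other scalings, filters and thresholds, a replicate block and leaving out libraries. The test was checked on simulated data in which 200 genes were changed, where 8040 were called in the real data. That check does not cover so wide a change. Reads have no molecular identifiers, so counting intervals and limits cover counting error only. Protein sequences were not used here.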

Additional observations from a re-analysis of the deposited data

How the results depend on the processing

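Counts of members called stayed between 8 and 10 higher and between 4 and 6 lower over 15 alternatives. Those for pathway genes and all genes stayed within 1.5 times the reported counts, and Max kept its rise. Over the 15, 13 of 23 members kept both direction and call, among them Dusp4 (log2 -1.16 to -1.05), Dusp1, Dusp2, Dusp6, Dusp12 and Spred3. The exceptions with a call are Dusp5, Dusp11 and Dusp23. DESeq2 gave an adjusted p of 0.0963, 0.0614 and 0.102 for them, and a threshold of 0.01 ended all 3 calls. Dusp11 was also lost with library totals (0.0508) and with no filter (0.0948). Fits with other filters tested other numbers of genes, and the cause of the other changes was not tested. Directions turned only among members that did not pass. With upper quartile scaling Dusp19 had a log2 value of 0.009 and Dusp22 of 0.001. Leaving out single libraries turned at least once Dusp10 (range -0.113 to 0.075), Dusp19 (-0.066 to 0.062), Spred2 (-0.088 to 0.099, negative only without control 1) and Spry1 (-0.083 to 0.047).

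With the replicate number as a block, 9 members were higher and 5 lower, since Dusp11 had an adjusted p of 0.0519. Over all genes it gave 3941 higher and 4093 lower. Same-numbered libraries did not deviate together (correlations of 0.004, 0.035 and -0.024), and the labels give the number no meaning. Whether they shared a batch or culture is not stated, and these few values cannot decide it. Members under about 5 CPM (Dusp2, Dusp5, Dusp23) rest on few reads, as do the untested ones, of which Dusp15 was called lower with no filter (adjusted p = 0.00229).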
